A study of Mus musculus with 2 samples.

Results

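A small set of tumour macrophages that carry transcripts of Prtn3 together with abundant Apoe was described in immune cells from tumours of ovariectomised mice. Cells were chosen on raw counts of unique molecular identifiers (UMIs, 1 for each captured transcript). A cell needed at least 2 UMIs of Prtn3, at least 20 of Apoe and at least 2 of Csf1r, Fcgr1 and Cd68 together. It could hold at most 2 UMIs of Ly6c2, 9 of Mmp12 and Arg1, 2 of Ccl8, Cbr2 and Folr2, 2 of Ace, Treml4 and Adgre4, 4 of Retnla, 1 of Mki67 and Top2a, and 1 of Cd3e, Cd3d and Cd3g. The rule found 110 of 9255 barcodes with at least 200 genes, 34 of 3490 in the placebo library and 76 of 5765 in the E2 library. Because measured counts chose these cells, the level of each gene in the rule is a description and no finding, and no cluster was built to find them.

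Prtn3 encodes proteinase 3, a serine protease that neutrophils and monocytes keep in azurophil granules together with neutrophil elastase (Elane), cathepsin G (Ctsg) and myeloperoxidase (Mpo). These genes are transcribed mainly in granulocyte and monocyte progenitors of the bone marrow, and transcription is largely shut off as the cells mature. Blood monocytes that carry Ly6C on their surface enter tumours through the chemokine receptor CCR2, lose Ly6C and take on macrophage genes, among them MHC class II, complement C1q and the lipid carrier apolipoprotein E.

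The tumours came from C57BL6\J mice. All had been ovariectomised, which removes the main source of estrogen. 1 group received placebo and the other E2, the usual abbreviation of estradiol. Live CD45+ cells, that is white blood cells, were isolated by flow cytometry and 1 droplet library per group was made with 3′ chemistry (10x Genomics Chromium). The sources used here do not give the kind of tumour, how much E2 was given or for how long, the age of the mice or how many mice went into a library. With 1 library per group there is no replicate spread, so no test was run. Intervals are exact 95% intervals that cover counting error only. Differences between placebo and E2 are differences between 2 libraries, and a comparison of sets of cells is given within each library. The libraries held 24545595 UMIs (placebo) and 52628133 UMIs (E2), with medians of 5128 and 8049 UMIs per barcode. The 2 libraries shared 95 barcode sequences, and 0 of the chosen placebo cells and 1 of the chosen E2 cells carried one of these.

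Prtn3 lies on chromosome 10 at 79874476-79883174 on the forward strand (GRCm38, GENCODE M21), and Elane at 79886247-79888215 and Cfd at 79890853-79892655 follow it on the same strand. The RefSeq starts used for the promoters, 79879667 for Prtn3 and 79886312 for Elane, differ from these GENCODE starts, and that of Prtn3 lies inside the GENCODE gene. The stretches upstream of the exons at the RefSeq starts of Prtn3 and Elane are shown because the 2 neighbouring genes encode proteases of the same granules, of which the rule asked for Prtn3 transcripts alone. Both are given 5′ to 3′ on the forward strand, from the RefSeq promoter windows of GRCm38.p6 with annotated exon bases removed. Capitals mark matches on either strand to AGGAAG, an ETS core of the PU.1 type, and to AACNGT, a Myb core, and no capitals overlap.
Prtn3 chr10:79879417-79879613: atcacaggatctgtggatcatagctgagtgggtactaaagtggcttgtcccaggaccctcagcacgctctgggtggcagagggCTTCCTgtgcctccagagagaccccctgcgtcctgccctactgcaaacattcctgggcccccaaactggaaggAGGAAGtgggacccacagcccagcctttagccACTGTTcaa
Elane chr10:79886062-79886246: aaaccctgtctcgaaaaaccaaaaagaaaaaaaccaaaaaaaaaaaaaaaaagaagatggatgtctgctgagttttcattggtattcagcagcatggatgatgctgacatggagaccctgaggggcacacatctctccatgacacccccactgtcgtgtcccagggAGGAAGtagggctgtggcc
The Prtn3 window held AGGAAG 2 times, 167 and 94 bases before the RefSeq start, and the Elane window held it 1 time, 84 bases before its start. AACNGT was matched 1 time before Prtn3, 62 bases from the start, and 0 times before Elane. TTNNGNAA, a C/EBP core, was matched in neither window. Of 32851 mouse promoter windows of the Prtn3 length, 23.5% held AGGAAG, 18% held AACNGT and 32% held TTNNGNAA, and the shares for the Elane length were 22.2%, 17.1% and 30.7%. A match describes the letters of the window and shows no bound factor.

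In the chosen cells Prtn3 was found almost without Elane, Mpo and Ctsg, whose proteins share its granules. The placebo cells held 104 Prtn3 UMIs and the E2 cells 259, which is 287 (234 to 347) and 327 (288 to 369) UMIs per 1000000 UMIs of these cells (CPM). A placebo cell held a median of 2.5 Prtn3 UMIs and at most 10, and an E2 cell a median of 3 and at most 9. Exactly 2 UMIs, the least the rule allows, were found in 17 placebo and 31 E2 cells, and 26 placebo and 98 E2 cells that met every other clause lay just outside it with 1 UMI. Elane was at 0 CPM in the placebo cells and 1.26 CPM in the E2 cells, while Mpo and Ctsg were at 0 in both. None of the placebo cells and 1 of the E2 cells held any UMI of these other granule genes. After each cell was thinned to 2000 UMIs, 0 of 34 placebo and 0 of 76 E2 cells held an Elane or Mpo UMI, and by the limit of 3 counts up to 8.82% and 3.95% of cells could still hold one. Cells that met every other clause but held no Prtn3 UMI were alike. Thinned, 0 of 190 placebo and 1 of 600 E2 cells held Elane, and 0 held Mpo. Low Elane and Mpo were thus not particular to the chosen cells. T cells were set beside the chosen cells, picked by at least 3 UMIs of Cd3e, Cd3d and Cd3g together and 0 of Csf1r, Fcgr1 and Cd68. Among T cells thinned the same way, Prtn3 was found in 0 of 987 placebo cells (up to 0.304% by the same limit) and in 1 of 806 E2 cells (0.124%). This choice of T cells leaves out barcodes with stray macrophage transcripts, and the part of free RNA in the Prtn3 counts was not tested. The corresponding shares of the chosen cells were 55.9% and 46.1%, with medians of 10174 and 10118.5 UMIs per chosen cell and 4709.5 and 4470.5 per T cell. Because the rule required Prtn3, the shares of the chosen cells follow from the choice, and their distance from T cells is no finding.

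The 110 cells held a minority of the Prtn3 transcripts of the tumour infiltrate. They carried 34.2% of the 304 Prtn3 UMIs of the placebo library and 25.4% of the 1019 of the E2 library. At least 2 Prtn3 UMIs were found in 64 placebo and 214 E2 barcodes, of which 53.1% and 35.5% were chosen cells. Of the other 30 placebo and 138 E2 barcodes, 20 and 116 held more than 2 Ly6c2 UMIs and 15 and 45 held fewer than 20 Apoe UMIs, and 30 and 134 met the macrophage clause. At least 3 UMIs of Elane, Mpo, Ctsg and Ms4a3 together were found in 0 and 3 of them. The barcode richest in Prtn3 held 30 UMIs in the placebo library, with 38 of Ly6c2, 2 of Apoe and 0 of Elane, Mpo, Ctsg and Ms4a3. Its counterpart in the E2 library held 31, with 37 of Ly6c2, 1 of Apoe and 6 of Elane, Mpo, Ctsg and Ms4a3 together. The rule shuts out cells with more than 2 UMIs of the monocyte gene Ly6c2. That most of the Prtn3-bearing barcodes outside it carried Ly6c2 therefore follows in part from the choice.

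The 10 clauses of the rule did not weigh alike. Dropping the Prtn3 clause added 218 placebo and 712 E2 cells, dropping the Ly6c2 clause added 7 and 74, and dropping the Apoe clause added 5 and 6. The 11 cells that the Apoe clause kept out held at most 16 Apoe UMIs, whereas the chosen cells held 33 to 417 (median 149) in the placebo library and 22 to 445 (median 169) in the E2 library. Ly6c2 was at 0 in 19 placebo and 41 E2 cells, at 1 in 8 and 22, and at its limit of 2 in 7 and 13. The limit on Ly6c2 therefore ran through a continuous range of cells, mostly in the E2 library.

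Without that limit, cells with 2 or more Prtn3 UMIs were found along the whole range of Ly6c2. In the placebo library they made up 10.4% (6.37 to 15.7%) of 183 cells without Ly6c2, 21.7% (12.7 to 33.3%) of 69 cells with 1 or 2 UMIs, 11.1% (3.11 to 26.1%) of 36 with 3 to 9, and 3 of 7 cells with 10 or more. In the E2 library they made up 6.77% (4.90 to 9.07%) of 606, 19.2% (13.8 to 25.7%) of 182, 30.2% (23.6 to 37.5%) of 182 and 20.9% (13.1 to 30.7%) of 91. The cells without Ly6c2 had the lowest share in both libraries, and its interval lay below those of the other 3 classes in the E2 library but overlapped all 3 in the placebo library. Median depth differed along the same classes, from 8457 to 10434 UMIs in the placebo library and from 8926 to 10995 in the E2 library, and its part in the shares was not tested. Over the same 4 classes Chil3, a chitinase-like protein secreted by myeloid cells, went from 85.3 to 226, 441 and 1367 CPM in the placebo library and from 536 to 1649, 2281 and 3126 CPM in the E2 library. Apoe went from 16069 CPM at 0 Ly6c2 UMIs to 6144 CPM at 10 or more (placebo), and from 20260 to 7185 CPM (E2).

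**Figure D1:**
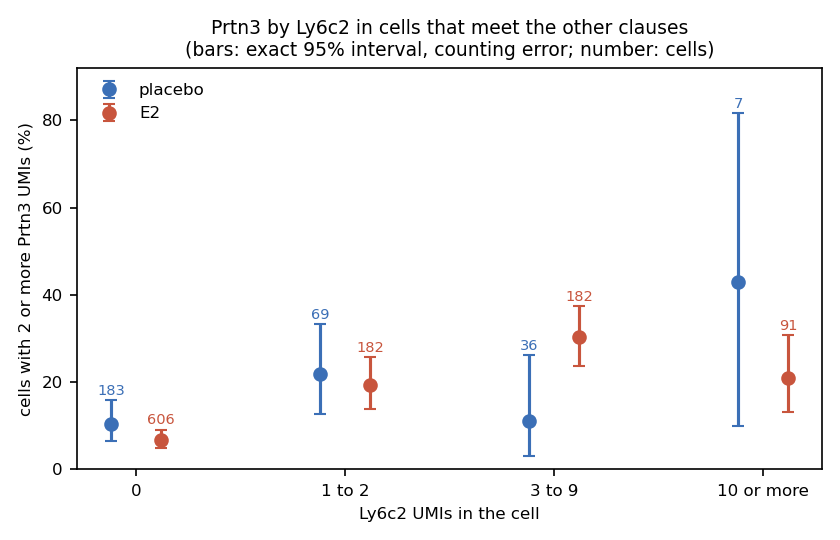
Percent of cells with 2 or more Prtn3 UMIs (y axis) among cells that met every clause but those on Prtn3 and Ly6c2, by Ly6c2 UMIs of the cell (x axis), for the placebo and the E2 library, with exact 95% intervals for counting error. The lowest shares, 10.4% and 6.77%, are at 0 Ly6c2 UMIs.

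The label calls these cells macrophages of monocyte origin, and their markers can be checked as far as expression goes. Csf1r, the receptor of the macrophage growth factor M-CSF, was at 766 CPM in the placebo cells and 669 in the E2 cells. Fcgr1, a high-affinity antibody receptor, was at 240 and 242 CPM, and Cd68, a lysosomal glycoprotein, at 273 and 276 CPM, but these 3 genes are part of the rule. Over 10 defining macrophage genes, which include these 3, the summed level was 17757 and 18774 CPM. Lyz2, lysozyme, made up 13247 and 13584 CPM of these sums. None of the 10 was at 0 in either library, but C1qa was detected in only 38.2% of the placebo and 28.9% of the E2 cells. The origin of the cells was not measured. Ccr2, which the rule did not use, was found in all 34 and all 76 cells, at 751 to 3977 CPM (median 1958) in single placebo cells and 348 to 3147 CPM (median 1756) in E2 cells. It was also found in 96.4% and 90.2% of cells that met every other clause but held no Prtn3 UMI. In T cells the shares were 52.8% and 60.6%. Detection of Ccr2 was thus not particular to these cells, and these shares are not at equal depth.

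Markers of other cell types ranged from lists at 0 to lists with some genes spread over the cells. The T cell list summed to 2.76 CPM in the placebo cells and 5.04 CPM in the E2 cells, with 9 and 7 of its 10 genes at 0, Cd3e, Cd4 and Trac among them. The NK cell list summed to 0 and 1.26 CPM, with 8 and 7 of 8 genes at 0, and the erythroid and platelet list to 0 in both. The mast cell list summed to 11 and 24 CPM, with 8 and 4 of 10 genes at 0. The B cell list summed to 24.8 and 74.4 CPM, with 7 and 1 of 8 at 0, and 1 E2 cell reached 2623 CPM. The neutrophil list summed to 138 and 864 CPM, with 4 and 2 of 10 at 0, Retnlg and Ly6g in both libraries, with single-cell medians of 144 and 118 CPM. For this list 1 E2 cell reached 33053 CPM while the highest placebo cell had 492. Plasmacytoid dendritic cell genes summed to 240 and 285 CPM (single-cell medians 210.4 and 266), with Ccr9, Klk1, Cox6a2 and Pacsin1 at 0 in both libraries. Conventional dendritic cell genes of type 1 summed to 334 and 284 CPM (single-cell medians 359 and 252) with Xcr1, Clec9a and Itgae at 0 in both libraries, those of type 2 to 132 and 234 CPM with Zbtb46 at 0, and mature dendritic cell genes to 2.76 and 11.3 CPM. Fibroblast genes summed to 2.76 and 20.2 CPM and keratin genes to 0 and 1.26 CPM. In cells without Prtn3 the neutrophil, plasmacytoid and type 1 dendritic cell lists had like single-cell medians, between 96.6 and 398 CPM, and the part of these lists in the results was not tested. A doublet score marked 0 of the placebo and 1 of the E2 cells for removal, and the E2 cell rich in neutrophil genes was not the one marked.

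Besides Prtn3 and Apoe, 3 genes were given as marks of these cells. Thbs1 encodes thrombospondin 1, a matrix glycoprotein that activates TGF-beta and restrains vessel growth. It ranged from 0 to 5617 CPM (median 1664) over the placebo cells and from 0 to 7410 CPM (median 2582) over the E2 cells, and summed to 1855 (1718 to 2001) and 2782 (2668 to 2901) CPM. Itgb5, the integrin chain that pairs with alpha V to bind vitronectin, ranged from 0 to 742 CPM (median 211) and from 0 to 735 CPM (median 189), and summed to 237 (190 to 293) and 195 (166 to 229) CPM. Apoc1, a small apolipoprotein encoded beside Apoe on chromosome 7, had a median of 0 CPM in single cells of both libraries and was detected in 32.4% and 40.8% of them. It summed to 66.2 (42.4 to 98.4) and 154 (128 to 184) CPM, and single cells reached 602 and 4366 CPM. At 24 Apoc1 UMIs over 34 placebo cells, a cell with none may still express it. Itgb5 was detected in 88.2% and 78.9% of the cells and Thbs1 in 82.4% and 97.4%. Apoe itself ranged from 2378 to 39107 CPM (median 14822) in the placebo cells and from 2070 to 54508 CPM (median 17762) in the E2 cells.

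The closest cells to set beside these are the 192 placebo and 614 E2 cells that met every other clause but held no Prtn3 UMI. Of 9793 genes with at least 30 UMIs over the cells compared, 60 (0.613%) differed past 2-fold in the same direction in both libraries. Folds between sets and between libraries are on the scale of log2((CPM + 10)/(CPM + 10)), which understates differences of low genes, and the genes of the rule were not counted. Only 2 genes (0.0204%) were higher in the Prtn3 Apoe cells and 58 (0.592%) were lower, and the median over all genes was -0.07 in the placebo and -0.06 in the E2 library. With the richest cell of each gene left out of each set, 45 of the 58 remained lower and 0 of the 2 remained higher past 2-fold. Detection also favours deep cells: the Prtn3 Apoe cells had medians of 10174 and 10118.5 UMIs, and the cells without Prtn3 8501.5 and 8824.5. The part of depth in these differences was not tested beyond thinning every cell to 5000 UMIs, which gave 65 genes, 42 of them among the 60.

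Genes of monocytes were somewhat higher in the Prtn3 Apoe cells than in the cells without Prtn3. Of 23 measured genes of the monocyte list 18 were higher in both libraries and 5 lower, with medians of 0.26 (placebo) and 0.44 (E2), though only 1 passed 2-fold. That gene, Ifitm6, an interferon-induced membrane protein of myeloid cells, was at 74.4 CPM against 27.5 in the placebo library and at 115 against 48.7 in the E2 library (log2 1.17 and 1.09). Plac8, abundant in Ly6C-high monocytes, was at 959 against 745 CPM and at 927 against 426 CPM (log2 0.36 and 1.10). It was detected in 82.4% of placebo and 89.5% of E2 cells, against 56.8% and 41.7% of cells without Prtn3. Thinned to 2000 UMIs, these shares were 47.1% against 41.1% and 69.7% against 29.7%, and 3.04% and 2.48% in T cells. The difference in detection was thus larger in the E2 library at equal depth as well. Hp, the hemoglobin-binding haptoglobin, was at 248 against 156 CPM and at 304 against 133 CPM (log2 0.64 and 1.13). Chil3 was at 187 against 122 CPM and at 1437 against 665 CPM (log2 0.58 and 1.10). Lyz2, lysozyme, was at 13247 against 8963 CPM in the placebo library and at 13584 against 9693 in the E2 library, under 1.5-fold in both.

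The genes named next were also higher in both libraries. Mgst1, a membrane glutathione transferase, was at 259 against 152 CPM and at 260 against 103 CPM (log2 0.73 and 1.25). Gsr, glutathione reductase, was at 276 against 166 CPM and at 269 against 119 CPM (log2 0.70 and 1.12). Msrb1, a methionine sulfoxide reductase, was at 615 against 373 CPM and at 521 against 303 CPM (log2 0.71 and 0.76). None of these 3 passed 2-fold in both libraries. Clec4e, the receptor Mincle for mycobacterial glycolipids, was at 190 against 102 CPM and at 285 against 133 CPM (log2 0.84 and 1.05). Fn1, fibronectin, was at 2026 against 1271 CPM and at 1775 against 931 CPM (log2 0.67 and 0.92). Thbs1 was at 1855 against 1071 CPM and at 2782 against 1740 CPM (log2 0.79 and 0.67), and its share of positive cells at 2000 UMIs was 67.6% against 52.6% and 90.8% against 70.8%, with 0.811% and 2.23% in T cells. The intervals of these Thbs1 shares overlapped in the placebo library (49.5 to 82.6% and 45.3 to 59.9%). They did not in the E2 library (81.9 to 96.2% and 67.0 to 74.4%). Areg, the EGF-family growth factor amphiregulin, was the other gene past 2-fold, at 46.9 against 6.12 CPM and 34.0 against 10.2 CPM. It lies under the level of 50 CPM set for naming and was named after its values were seen. Its UMIs came from 2 of the placebo cells, 64.7% of them from 1, and from 1 of the E2 cells.

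Genes of mature macrophages were lower in the Prtn3 Apoe cells. Of 27 measured genes of the maturation list 20 were lower in both libraries, 2 higher and 5 of opposite sign, 8 were lower past 2-fold, and the medians were -0.50 and -0.65. C1qa, a chain of complement C1q, was at 444 against 1337 CPM (placebo) and at 469 against 1917 CPM (E2), log2 -1.57 and -2.01. C1qb was at 711 against 1517 and at 889 against 2172 CPM (log2 -1.08 and -1.28). At 2000 UMIs per cell C1qa was detected in 32.4% of Prtn3 Apoe cells against 48.9% of cells without Prtn3 in the placebo library and in 22.4% against 52.2% in the E2 library, with 0.709% and 1.74% in T cells. In the E2 library the shares were thus further apart than in the placebo library. Their intervals overlapped in the placebo library (17.4 to 50.5% and 41.6 to 56.3%) but not in the E2 library (13.6 to 33.4% and 48.1 to 56.2%). Pf4, platelet factor 4, which resident macrophages also make, was at 35.8 against 215 and at 17.6 against 506 CPM. Ms4a7, a membrane protein of tissue macrophages, was at 79.9 against 204 and at 79.4 against 283 CPM (log2 -1.25 and -1.71). Mrc1, the mannose receptor, was at 251 against 358 and at 195 against 407 CPM (log2 -0.50 and -1.02).

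Cd63, Cd9 and Cd81, which are tetraspanins, were among the named genes that were lowest. Cd63, which sits in late endosomes, was at 16.5 against 159 CPM in the placebo library and at 13.9 against 248 CPM in the E2 library (log2 -2.67 and -3.44). Cd9 was at 13.8 against 105 and at 12.6 against 149 CPM (log2 -2.28 and -2.81), and Cd81 at 5.51 against 66.7 and at 5.04 against 108 CPM (log2 -2.31 and -2.97). All 3 were thus near the floor in the Prtn3 Apoe cells of both libraries. Ccnd1, cyclin D1, was at 2.76 against 50.2 and at 3.78 against 70.4 CPM. Of the 58 lower genes 7 belong to the 10 mast cell markers, such as Mcpt4, at 0 against 305 and 3.78 against 408 CPM. A single cell without Prtn3 held 99.2% of the placebo Mcpt4 UMIs, and the mast cell list reached 157965 and 161976 CPM in the richest cell without Prtn3.

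Lipid genes did not move as 1 group although Apoe chose the cells. Of 25 measured genes of the lipid list 4 were higher in both libraries, 14 lower and 7 of opposite sign, 5 of the lower ones passed 2-fold, and the medians were -0.39 and -0.26. Abca1, which exports cholesterol, was at 13.8 against 81.4 and at 40.3 against 121 CPM (log2 -1.94 and -1.38). Fabp5, a fatty acid carrier, was at 77.2 against 236 and at 64.3 against 195 CPM (log2 -1.49 and -1.46). Spp1, osteopontin, was at 16.5 against 138 and at 112 against 406 CPM. Trem2, the receptor of lipid-laden macrophages, differed little, at 314 against 327 and at 465 against 522 CPM (log2 -0.05 and -0.16), and Apoc1 took opposite directions. Apoe, which both sets needed by rule, was at 15392 against 14285 and at 17690 against 18699 CPM.

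Other lists differed less. MHC class II genes were lower in both libraries for 9 of 13, higher for 0, and 0 passed 2-fold, with medians of -0.30 and -0.24. H2-Ab1 was at 4756 against 6254 CPM in the placebo library and at 2941 against 5276 in the E2 library. Hypoxia and glycolysis genes were higher for 19 of 27 and lower for 2, with medians of 0.21 and 0.23 and 0 past 2-fold, Gapdh at 1475 against 1025 and 1775 against 1265 CPM. Chemokine and cytokine genes were higher for 7 of 32 and lower for 18, with 1 higher and 4 lower past 2-fold. The higher one was Areg, whose UMIs came from 2 placebo cells and 1 E2 cell. Cxcl16, a membrane-bound chemokine, was at 77.2 against 230 and at 54.2 against 242 CPM, and Il1rn, the interleukin 1 receptor antagonist, was at 30.3 against 113 and at 40.3 against 104 CPM. Integrin and matrix genes were higher for 6 of 26 and lower for 14, with 3 lower past 2-fold, and Itgb5 differed little at 237 against 259 and 195 against 211 CPM. Of 7 protease inhibitors and protease partners 1 was higher and 4 lower in both libraries. Slpi, an inhibitor of leukocyte proteases, was the higher one, at 49.6 against 21.4 and at 130 against 98.1 CPM. Serpinb1a, which inhibits neutrophil serine proteases, was at 0 against 25.1 and at 1.26 against 34.2 CPM. Oxidative phosphorylation genes were higher for 11 of 28, lower for 7 and of opposite sign for 10, with 0 past 2-fold. Of the stress genes that tissue dissociation is known to induce 9 of 24 were higher and 4 lower, with 0 past 2-fold. Of 17 estrogen and nuclear receptor genes 1 was higher and 8 lower, and Esr1, the estrogen receptor alpha, was at 8.27 against 9.18 and at 7.56 against 4.64 CPM.

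**Figure D2:**
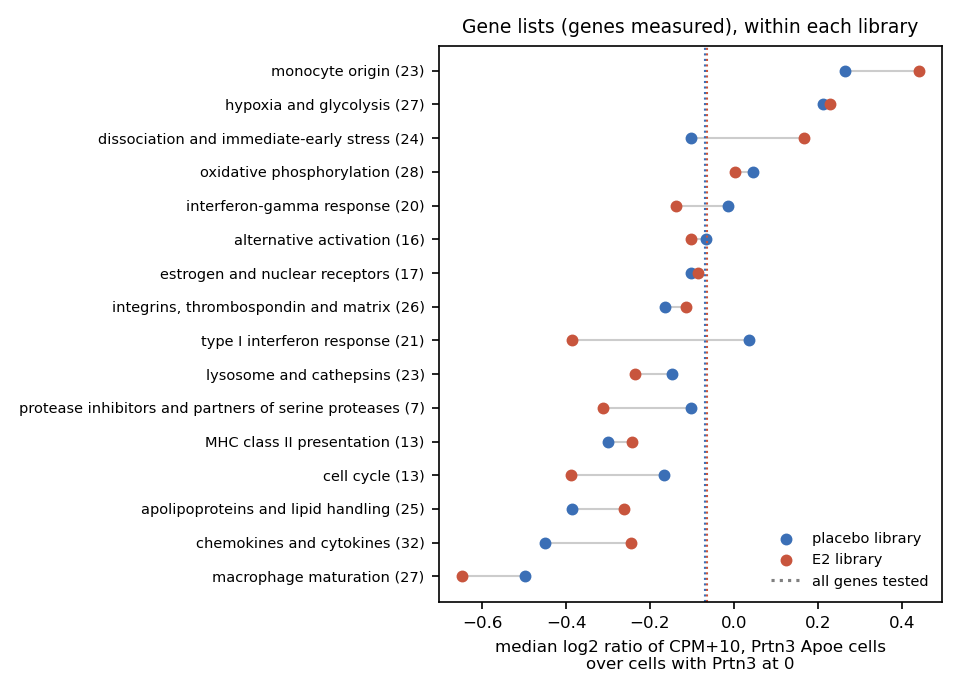
Median log2 ratio of Prtn3 Apoe cells over cells that met the same rule with no Prtn3 UMI (x axis) for each gene list with at least 5 measured genes (y axis), in the placebo and the E2 library, with dotted lines for all genes tested. Of the lists shown the maturation list lies lowest, at -0.50 and -0.65, and the monocyte list is above 0 in both, at 0.26 and 0.44.

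**Figure D3:**
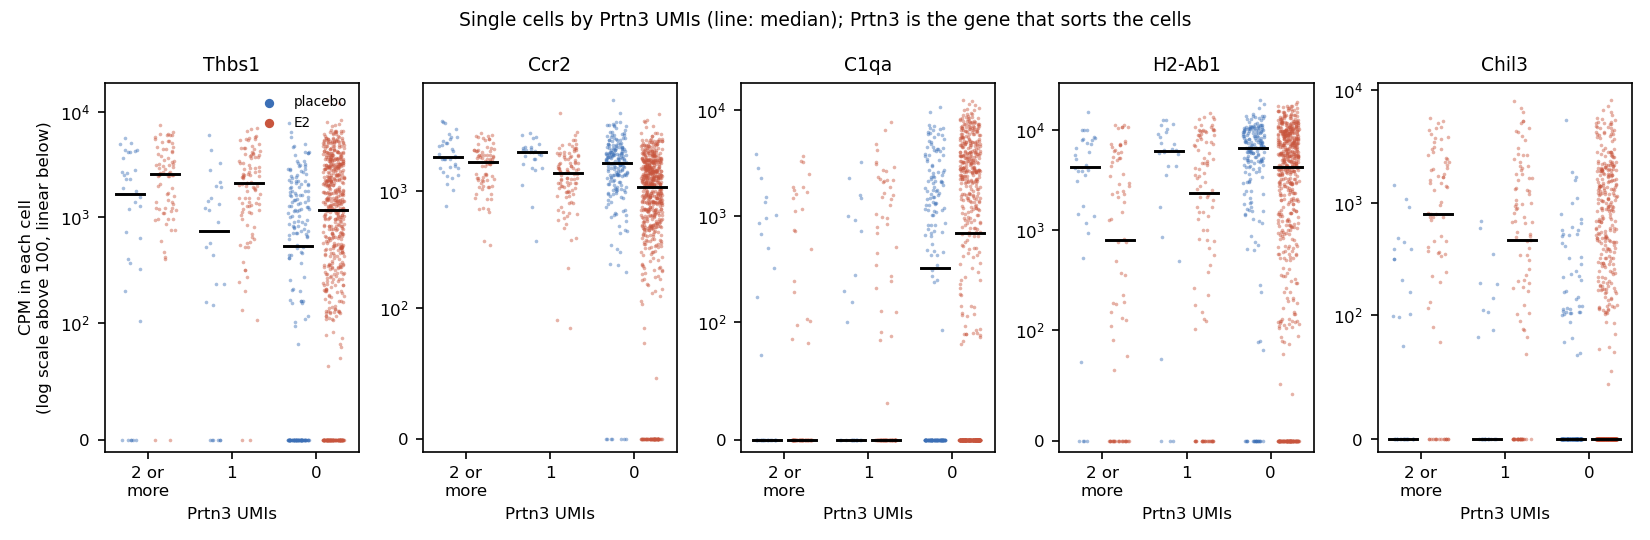
Level in single cells (CPM, y axis) of Thbs1, Ccr2, C1qa, H2-Ab1 and Chil3, for cells of the rule with 2 or more, 1 or 0 Prtn3 UMIs (x axis) in each library, where points are cells and lines medians. The median of C1qa is 0 at 2 or more Prtn3 UMIs and 326 (placebo) and 691 CPM (E2) at 0.

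Cells with exactly 1 Prtn3 UMI, just outside the rule, differed from the Prtn3 Apoe cells in 8 of 6703 genes (0.119%) past 2-fold in both libraries, 1 higher (0.0149%) and 7 lower (0.104%). In placebo cells with 1 UMI Thbs1 was at 1176 CPM, between the 1071 of cells without Prtn3 and the 1855 of the Prtn3 Apoe cells, and in the E2 library at 2371 CPM, between 1740 and 2782. Ccr2 was at 2011 CPM (placebo) and 1425 CPM (E2) in them, again between the 1721 and 1069 CPM of cells without Prtn3 and the 2112 and 1692 CPM of the Prtn3 Apoe cells. Chil3 was not ordered in the placebo library, at 93.2 CPM, and was at 1094 CPM in the E2 library.

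The other flank of these cells is the monocyte side. Ly6c2-high cells were taken as those with at least 5 Ly6c2 UMIs and fewer than 20 of Apoe, 69 in the placebo and 198 in the E2 library. Some of them held Siglech, a gene of plasmacytoid dendritic cells, and the 58 and 164 without a Siglech UMI, a set chosen after seeing the data, were used here. Of 7619 genes 259 (3.4%) differed past 2-fold in both libraries, 107 higher (1.4%) and 152 lower (2%) in the Prtn3 Apoe cells, with medians over all genes of -0.05 and -0.06. Against all Ly6c2-high cells 312 of 8100 genes (3.85%) did, 95 higher (1.17%) and 217 lower (2.68%).

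MHC class II and complement genes led among those higher in the Prtn3 Apoe cells than in Ly6c2-high cells. C1qa was at 444 against 0 CPM in the placebo library and at 469 against 6.27 CPM in the E2 library. H2-Eb1, an MHC class II beta chain, was at 4207 against 271 and at 2968 against 458 CPM (log2 3.91 and 2.67), and Cd74, the invariant chain, at 13302 against 1822 and at 9585 against 1879.8 CPM (log2 2.86 and 2.34). Of 12 class II genes 9 were higher in both libraries, 0 lower and 5 past 2-fold, with medians of 1.29 and 0.99. Of 22 maturation genes 19 were higher and 12 past 2-fold, with medians of 1.36 and 1.08. Mrc1 was at 251 against 35.7 and at 195 against 33.6 CPM. Itgb5 was at 237 against 44.7 and at 195 against 31.9 CPM (log2 2.18 and 2.29), Trem2 at 314 against 43.2 and at 465 against 113 CPM (log2 2.61 and 1.95), and Lgmn, the lysosomal protease legumain, at 736 against 164 and at 871 against 139 CPM (log2 2.10 and 2.56). Ccr2 was also higher, at 2112 against 987 and at 1692 against 935 CPM (log2 1.09 and 0.85), so the chemokine receptor did not go down with the other monocyte genes.

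Most monocyte genes lay lower than in the Ly6c2-high cells. Of 23 monocyte genes 16 were lower in both libraries and 7 higher, 9 lower and 2 higher past 2-fold, with medians of -0.94 and -0.76. Plac8 was at 959 against 3127 and at 927 against 2907 CPM (log2 -1.69 and -1.64). Ifitm6, higher than in cells without Prtn3, was at 74.4 against 435 and at 115 against 685 CPM, so its level lay between the sets. All 21 type I interferon genes were lower, 9 of them past 2-fold, with medians of -1.13 and -1.14. Isg15, a ubiquitin-like interferon product, was at 93.7 against 301 and at 37.8 against 215 CPM. Slpi was at 49.6 against 430 and at 130 against 808 CPM. Thbs1 took no common direction, at 1855 against 1697 and at 2782 against 3267 CPM. Stress genes of the dissociation list were higher for 16 of 24 and lower for 1, with 4 past 2-fold, Fos at 2429 against 1358 and at 3066 against 1328 CPM. Their part in the other differences was not tested.

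**Figure D4:**
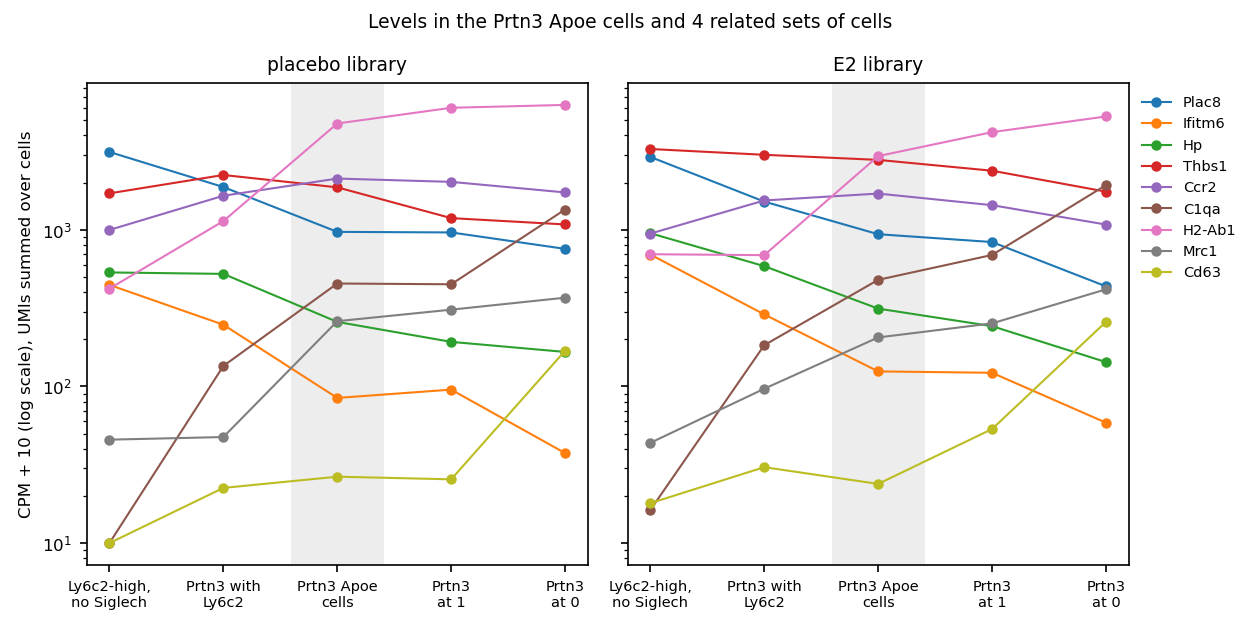
Summed level (CPM + 10, log axis) of Plac8, Ifitm6, Hp, Thbs1, Ccr2, C1qa, H2-Ab1, Mrc1 and Cd63 in 5 sets of cells (x axis: Ly6c2-high without Siglech, the Prtn3 rule with more than 2 Ly6c2 UMIs, the Prtn3 Apoe cells shaded, and the same rule at 1 and at 0 Prtn3 UMIs), with 1 panel per library and lines that join a gene's values. Plac8, Hp and Ifitm6 in the Prtn3 Apoe cells lie between Ly6c2-high cells and cells without Prtn3, as do C1qa, H2-Ab1 and Mrc1 in the other direction.

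A last neighbour meets the whole rule except that it holds more than 2 Ly6c2 UMIs, 7 cells in the placebo and 74 in the E2 library. Of 6317 genes 32 (0.507%) differed past 2-fold in both libraries, 16 higher (0.253%) and 16 lower (0.253%) in the Prtn3 Apoe cells, and the 7 placebo cells limit this comparison. H2-Eb1 was at 4207 against 738 CPM (placebo) and at 2968 against 567 CPM (E2), C1qa at 444 against 125 and 469 against 173 CPM, and Mrc1 at 251 against 37.5 and 195 against 86.7 CPM. Isg15 was lower, at 93.7 against 275 and 37.8 against 95.8 CPM, as was Slpi, at 49.6 against 275 and 130 against 426 CPM. Of 23 monocyte genes 7 were higher and 15 lower in both libraries, 3 of them lower past 2-fold. The richest placebo cell with Ly6c2 held 50.8% of that set's H2-Eb1, 80% of its C1qa and 63.6% of its Isg15 UMIs. Without the richest cells Isg15 fell to log2 -0.76 and -0.81, while H2-Eb1 and C1qa stayed past 2-fold. At the same Prtn3 threshold the cells with Ly6c2 thus held less class II and C1q transcript and more of most monocyte genes.

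The tumour macrophages that the rule kept out differed more widely. Against Arg1/Mmp12 cells (117 placebo, 79 E2) 427 of 8039 genes (5.31%) passed 2-fold in both libraries, 133 higher (1.65%) and 294 lower (3.66%), with medians over all genes of -0.07 and -0.04. Sepp1, the selenium carrier selenoprotein P, was at 469 against 61.4 and at 484 against 90.2 CPM, and Apoc1 was at 66.2 against 7.59 and at 154 against 8.68 CPM. The chemokine Ccl24 was at 22.1 against 2389.6 and at 20.2 against 1008 CPM. Against Ccl8/Cbr2/Folr2 cells (51 placebo, 232 E2) 455 of 8468 genes (5.37%) passed, 133 higher (1.57%) and 322 lower (3.8%), with medians of -0.14 and -0.14. Plac8 was at 959 against 23.6 and at 927 against 53.3 CPM, and Thbs1 at 1855 against 148 and at 2782 against 451 CPM. Pf4 was at 35.8 against 3014 and at 17.6 against 2682 CPM, and C1qc at 273 against 3408 and at 303 against 3861 CPM.

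The position of the cells among all barcodes was described by their 15 nearest neighbours on 30 principal components of 2000 variable genes, with the genes of the rule left out. Of the 1650 neighbours 16.1% were Prtn3 Apoe cells themselves, which make up 1.19% of all barcodes. Cells of the same rule with 1 Prtn3 UMI gave 10.2% (1.34% of all barcodes) and those with none 40.1% (8.71%). Cells outside these sets with 3 or more Ly6c2 and 20 or more Apoe UMIs gave 23.2% (4.29%). Ly6c2-high cells gave 1.09% (2.89%), Arg1/Mmp12 cells 0.848% (2.12%), Ccl8/Cbr2/Folr2 cells 0.303% (3.06%) and T cells 0 (19.8%). Neighbours of E2 cells came from the E2 library in 80.9% of cases (62.3% of all barcodes), and neighbours of placebo cells from the placebo library in 30.6% (37.7%). All barcodes are a poor base for these 2 shares, because they include T cells, which gave 0 neighbours. Cells that met every clause but that on Prtn3 were 252 in the placebo and 788 in the E2 library. Mixing of the libraries was not tested. The Prtn3 Apoe cells thus lay among Apoe-rich cells with or without Ly6c2 and apart from the other macrophage sets.

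Within the Prtn3 Apoe cells the few remaining Ly6c2 UMIs went with the same genes. Cells with 0 Ly6c2 UMIs had 534 CPM of Plac8 in the placebo library and those with 1 or 2 had 1394, and in the E2 library the levels were 588 and 1329. Chil3 was at 131 and 245 CPM (placebo) and at 1034 and 1916 CPM (E2). C1qa went the other way, at 540 and 346 CPM (placebo) and at 671 and 229 CPM (E2), as did Apoe, at 18185 and 12536 CPM and at 21289 and 13419 CPM. H2-Ab1 was at 4978 and 4528 CPM and at 3417 and 2377 CPM. Median depths of the classes were 9924 and 11515 UMIs in the placebo library and 10070 and 10147 in the E2 library. By the number of Prtn3 UMIs (2, 3 or 4, and 5 or more) the genes given here had no order common to both libraries. C1qa was at 630, 212 and 470 CPM in the placebo library and at 210, 800 and 258 CPM in the E2 library. H2-Ab1 went down in the placebo library, at 6271, 3836 and 2271 CPM, but not steadily in the E2 library, at 2441, 4037 and 1493 CPM. Fn1 went up in the placebo library, at 1325, 2425 and 3250 CPM, and was at 2141, 1449 and 1751 CPM in the E2 library. Thbs1 was at 1637, 1883 and 2506 CPM against 3013, 2576 and 2769 CPM. Plac8 went down in the E2 library, at 1156, 788 and 760 CPM, and was at 789, 1262 and 685 CPM in the placebo library. The highest class held 5 placebo and 15 E2 cells.

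The share of Prtn3 Apoe cells was 0.974% (0.676 to 1.36%) of placebo barcodes and 1.32% (1.04 to 1.65%) of E2 barcodes, a ratio of 1.35 (0.892 to 2.09). Among barcodes with at least 2 UMIs of Csf1r, Fcgr1 and Cd68 the order turned, with 2.93% of 1161 placebo and 2.49% of 3052 E2 barcodes (ratio 0.850, 0.560 to 1.31). Thinned to 5000 UMIs per barcode the shares were 0.944% and 1.16%. Among barcodes of 5000 to 10000 UMIs they were 1.28% of 1015 and 2.09% of 1627 (ratio 1.63, 0.839 to 3.37), and among those of 10000 to 20000 UMIs 3.07% of 652 and 2.34% of 1752 (ratio 0.763, 0.437 to 1.37). The intervals of these ratios include 1. With 1 Prtn3 UMI as the least required, the shares were 1.72% (60 cells) and 3.02% (174 cells), and the ratio of 1.76 (1.30 to 2.4) did not include 1. No difference in share was thus detectable at 2 or more Prtn3 UMIs at this depth. At 1 or more it was larger than counting error, with 1 library in each group. The share at 1 or more was not repeated at equal depth, and median depth was 5128 (placebo) and 8049 (E2) UMIs per barcode. Of the cells that met every other clause, 60 of 252 in the placebo and 174 of 788 in the E2 library held 1 or more. Cells that met every clause but that on Prtn3 were 7.22% of placebo and 13.7% of E2 barcodes (ratio 1.89, 1.64 to 2.19), and the Prtn3 Apoe cells were 13.5% (9.53 to 18.3%) and 9.64% (7.67 to 11.9%) of them. With the Ly6c2 limit dropped the shares were 1.17% and 2.60% (ratio 2.21, 1.56 to 3.21), an alternative chosen after seeing the data.

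Between the libraries 107 of 4588 genes (2.33%) differed past 2-fold in the Prtn3 Apoe cells, 61 higher (1.33%) and 46 lower (1%) in E2, with a median over all genes of -0.04. Without the richest cell of each gene in each library 123 genes passed, 91 higher and 32 lower, 87 of them among the 107. In cells of the same rule without Prtn3 the count was 76 of 9570 genes (0.794%), 57 higher (0.596%) and 19 lower (0.199%), with a median of -0.06. These cells are more numerous, so the counts are not matched in depth. Each value below is a difference between 1 placebo and 1 E2 library.

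On the log2 scale with 10 CPM added, Chil3 had the highest ratio of the named genes after 2 genes that came mostly from 1 cell. It was detected in 15 of 34 placebo and 60 of 76 E2 cells, with single-cell medians of 0 and 795 CPM, and summed to 187 and 1437 CPM (log2 2.87, ratio 7.67, 6.0 to 9.94). In cells without Prtn3 it was at 122 and 665 CPM (log2 2.35), so the higher level in E2 was shared. Mgl2, a galactose-binding lectin of macrophages and dendritic cells, was at 16.5 and 97.1 CPM (log2 2.01) and Spp1 at 16.5 and 112 CPM (log2 2.20), and both were likewise higher in E2 cells without Prtn3, at 96.7 and 276 CPM and at 138 and 406 CPM. Dpep2, a dipeptidase that cleaves leukotrienes, was at 44.1 and 155 CPM (log2 1.61), against 68.5 and 177 CPM without Prtn3. Lrg1, a secreted leucine-rich glycoprotein, was at 5.51 and 65.6 CPM (log2 2.28), and the placebo value rests on 2 UMIs. Gdf3, a TGF-beta family ligand, was at 8.27 and 52.9 CPM (log2 1.78), with 3 placebo UMIs. The neutrophil alarmins came from 1 cell: S100a8 was at 2.76 and 436 CPM (log2 5.13) and S100a9 at 11 and 234 CPM (log2 3.54), with 96.2% and 95.7% of the E2 UMIs in the richest cell, and without it the log2 ratios were 1.4 and 0.14.

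For 3 of the named genes higher in E2 the cells without Prtn3 had ratios near 0 or in the other direction. Ifitm1, an interferon-induced membrane protein, was at 24.8 and 113 CPM (log2 1.83), against 75.9 and 65.6 CPM (-0.18) in cells without Prtn3. Exosc2, a subunit of the RNA exosome, was at 16.5 and 88.2 CPM in 4 and 9 cells (log2 1.89), against 31.2 and 18.7 CPM (-0.52). Dhrs7, a short-chain dehydrogenase, was at 13.8 and 64.3 CPM in 5 of 34 and 37 of 76 cells (log2 1.64), against 44.7 and 52.8 CPM (0.20). The placebo levels of the Prtn3 Apoe cells rest on 9, 6 and 5 UMIs. In cells of the rule with more than 2 Ly6c2 UMIs the 3 log2 ratios were 3.104, 1.244 and 1.377, with 7 placebo cells. They were -0.43, 0.90 and 0.52 in cells with 1 Prtn3 UMI, and 0.46, -0.73 and 0.88 in Ly6c2-high cells without Siglech. A higher level in E2 was thus not particular to the Prtn3 Apoe cells. Whether these cells and the cells without Prtn3 differ in their response was not tested.

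Among genes lower in E2, Cx3cr1, the fractalkine receptor that monocytes gain as they lose Ly6C, had the most UMIs of the named genes. It was detected in 28 of 34 placebo and 48 of 76 E2 cells, with single-cell medians of 393 and 115 CPM, and summed to 480 and 153 CPM (log2 -1.59, placebo over E2 3.15, 2.48 to 4.0). In cells without Prtn3 it was at 511 and 427 CPM (log2 -0.25), and in cells with 1 Prtn3 UMI at 291 and 251 CPM (-0.21). Its log2 ratio was -1.08 in cells of the rule with more than 2 Ly6c2 UMIs. It was -0.90 in Ly6c2-high cells without Siglech and -0.87 in T cells, so the lower level was not particular to the Prtn3 Apoe cells. Hes1, a Notch target, was at 91.0 and 22.7 CPM, but 1 placebo cell held 57.6% of its UMIs and the log2 ratio of -1.63 became -0.81 without it. Ptger4, a prostaglandin E2 receptor, was at 82.7 and 22.7 CPM (log2 -1.50), against 34.3 and 43.3 CPM (0.27) in cells without Prtn3. Ciita, the master activator of class II genes, was at 85.5 and 30.3 CPM (log2 -1.25), against 88.1 and 45.3 CPM. Dpp9, Rnf19b, Nr2c2, Slc16a10, Ipmk, Ptgfrn and Nabp1 were also among the 12 lowest, with log2 ratios between -1.53 and -1.27.

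By list, class II genes were lower in E2 for 7 of 10 measured and higher for 3, 1 lower past 2-fold (Ciita), with a median of -0.45 against -0.17 in cells without Prtn3. H2-Ab1 had single-cell medians of 4198 and 781 CPM and summed to 4756 and 2941 CPM (log2 -0.69), H2-Aa to 4629 and 2862 CPM (log2 -0.69) and Cd74 to 13302 and 9585 CPM (log2 -0.47). Interferon-gamma response genes were lower for 8 of 11, 2 past 2-fold, with a median of -0.23, and type I interferon genes for 5 of 7, 1 past 2-fold, also -0.23. The latter was Isg15, at 93.7 and 37.8 CPM, with 41.2% of the placebo UMIs in 1 cell, and without the richest cells its log2 ratio of -1.12 became -0.61. Without the richest cell of each gene the medians of these 2 lists were -0.06 and -0.08. In cells without Prtn3 they were -0.31 and 0.30.

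Chemokine and cytokine genes were higher in E2 for 12 of 16, 5 past 2-fold and 0 lower past it, with a median of 0.29 against 0.06 without Prtn3. Cxcl2, which attracts neutrophils, was at 634 and 1491 CPM (log2 1.22, 1.67 without the richest cells), against 415 and 1183 CPM in cells without Prtn3. Ccl3 was at 196 and 449 CPM (log2 1.16) and Tnf at 27.6 and 88.2 CPM (log2 1.39), against 247 and 256 CPM and 57.5 and 90.4 CPM. The remaining pair past 2-fold was Ccl7, at 24.8 and 99.6 CPM, and Gdf3. Stress genes of the dissociation list were higher in E2 for 16 of 22, 3 past 2-fold, with the same median of 0.29 against -0.02, among them Nfkbia, an inhibitor of NF-kappaB, at 403 and 914 CPM (log2 1.16). The part of the stress genes in the chemokine levels was not tested. Hypoxia and glycolysis genes were higher for 14 of 25 and lower for 11, with a median of 0.10. Among them Vegfa, the vascular growth factor, was at 105 and 323 CPM in 10 of 34 and 43 of 76 cells (log2 1.54, ratio 3.08, 2.19 to 4.45), against 94.2 and 230 CPM without Prtn3.

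Lipid genes were higher for 10 of 18 and lower for 8, 4 higher and 1 lower past 2-fold, with a median of 0.16 against 0.07 in cells without Prtn3. The 4 higher ones were Spp1, Lpl, the lipoprotein lipase, at 35.8 and 89.5 CPM (log2 1.12), Apoc1 and Abca1. Monocyte genes were split 11 to 11 with a median of -0.02, and maturation genes 10 to 10 with a median of 0.03. Oxidative phosphorylation genes were higher for 15 of 28 and lower for 13 with 0 past 2-fold. Of the marker genes outside the rule, Thbs1 was 1.5 times as high in E2 (1.38 to 1.64), while the interval of Itgb5 (0.824, 0.629 to 1.09) includes 1. Of 9 measured nuclear receptor genes 2 were higher and 7 lower, 0 past 2-fold, with a median of -0.34 against -0.27, and Esr1 was at 8.27 and 7.56 CPM.

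**Figure D5:**
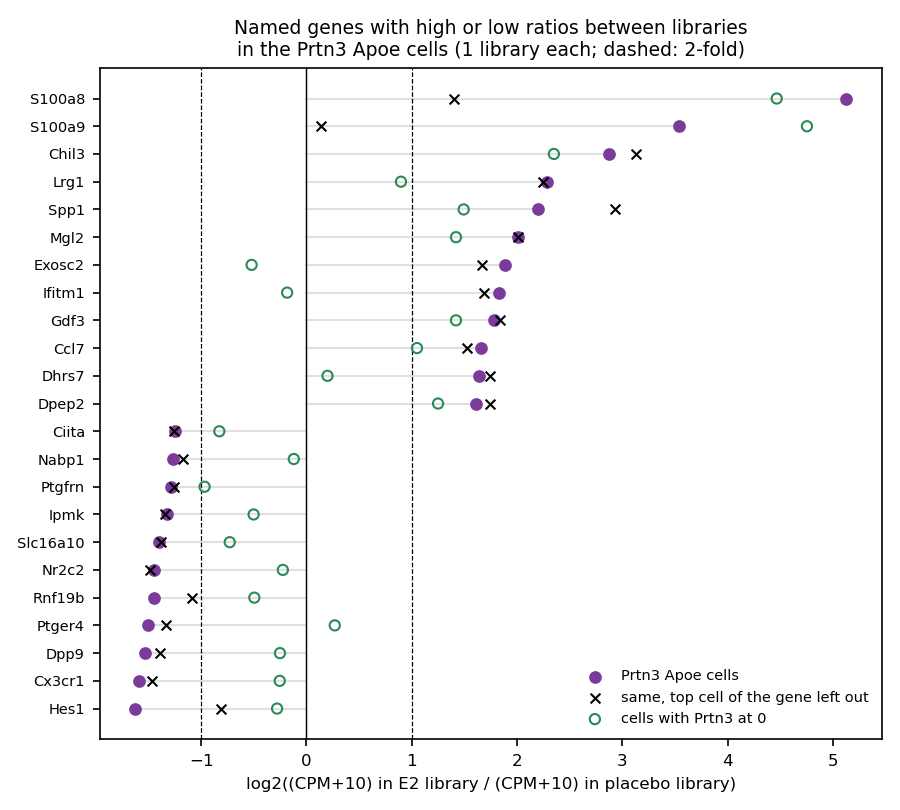
Log2 ratio of E2 over placebo (x axis) in the Prtn3 Apoe cells for named genes with the highest and lowest ratios (y axis), with the value after the richest cell of each gene was left out (crosses) and the value in cells of the same rule without Prtn3 (open circles). S100a9 goes from 3.54 to 0.14 and Hes1 from -1.63 to -0.81 without the richest cell, while Chil3 stays above 2 in every series.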

How the data were processed

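Single-cell RNA data of 2 libraries were read as raw UMI counts per gene and barcode, deposited without normalization and produced by the authors with Cell Ranger 3.1.0 and the mm10 build, according to the submitters' processing notes and the file headers. How barcodes were kept is not stated in the labels. Barcodes below 200 genes were dropped (15 placebo, 26 E2). The Prtn3 Apoe cells, the sets set beside them and the gene lists were chosen with earlier results of these data known. Within a library the UMIs of a set of cells were added up and scaled to CPM, and genes with at least 30 UMIs over the cells compared were described by log2((CPM + 10)/(CPM + 10)), with 2-fold as the threshold. All genes of the table entered each comparison. Ratios carry exact conditional-binomial, levels exact Poisson and shares Clopper-Pearson 95% intervals. Only the ratio intervals were checked on simulated counts. Those counts were drawn as independent UMIs, so the check could not show spread between cells. With 1 library per group there were no tests. Genes were named from 50 CPM upward in a set, without ribosomal, mitochondrial, receptor-segment, Gm and Rik genes: the 12 highest and 12 lowest between libraries, the 12 highest and lowest in both libraries between sets, and up to 5 per gene list. Of these the text describes a part, and it adds a few other members of the lists as examples; a list's own counts include all its measured members. A few genes that this rule would name are not reported here. Doublets scored with scanpy 1.11.5 (98 placebo and 268 E2 barcodes at 0.8% per 1000 barcodes) were removed only as an alternative. Gene positions are from GENCODE M21, which matched 47224 of 47730 features, and symbols held by 2 features were left out of the lists. Promoter sequences are from RefSeq (GRCm38.p6). Python 3.11.15, numpy 2.4.6, scipy 1.17.1, pandas 2.3.3, scikit-learn 1.9.0 and matplotlib 3.10.9 were used. Alternatives were another pseudocount, count minimum, fold, scaling, depth and form of the rule.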

Additional observations from a re-analysis of the deposited data

Results flagged for a closer look

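Apoc1 was the listed gene whose direction between the libraries was opposite in the 2 sets of cells past 2-fold. In the Prtn3 Apoe cells it was at 66.2 CPM in placebo and 154 CPM in E2, a log2 ratio of 1.10. In cells of the same rule without Prtn3 it was at 96.7 CPM in placebo and 37.5 CPM in E2, a log2 ratio of -1.17. Without the richest cell of each set and library the ratios were 1.07 and -0.92. With 1 library per group this difference was not tested.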

How the results depend on the processing

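No paired analysis was possible because each group held 1 library. The log2 ratio of the share of Prtn3 Apoe cells, E2 over placebo, was 0.44. It lay between 0.30 and 0.81 under 8 changes of thresholds, depth or barcodes. It was -0.23 among barcodes with at least 2 UMIs of Csf1r, Fcgr1 and Cd68, and 1.15 with the Ly6c2 limit dropped. By depth, it was 0.71 among barcodes of 5000 to 10000 UMIs and -0.39 among those of 10000 to 20000 UMIs. The count of genes past 2-fold between libraries, 107, was 234 with a pseudocount of 1, 16 with 50, 242 with a minimum of 10 UMIs, 22 with 100, and 651 at 1.5-fold. The share of higher genes among them, 57%, was 43.6% at a pseudocount of 1, 87.5% at 50, 86.4% at a minimum of 100 UMIs, 41.5% at 1.5-fold and 74.0% without the richest cell of each gene, and 61.8% with median-ratio scaling. The count of genes past 2-fold against cells without Prtn3, 60, was 333 with a pseudocount of 1, 18 with 50 and 227 at 1.5-fold. The other alternatives kept both counts within 1.5 times. Of 64 named genes and list medians 10 moved without the richest cell, an alternative chosen after seeing the data, and 0 with doublets removed or median-ratio scaling. Low genes are limited by depth, since 1 UMI is 2.76 CPM in the placebo cells and 1.26 CPM in the E2 cells.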
